A study of Mus musculus with 4 samples.

Results

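The core circadian clock genes are 10 genes, chosen by symbol for their place in the clock loop. They are the activators Arntl and Clock, the repressors Per1, Per2, Per3, Cry1 and Cry2, the nuclear receptors Nr1d1 and Nr1d2, and the output factor Dbp. All 10 were found among the 23282 genes listed for the heart, each on a single row, and all 10 had reads in every library. The hearts came from male CDF1 mice, listed at postnatal day 28, an age that the methods give for purchase, with tissue taken weeks later at the end of the experiment. The 4 groups were the normal control, E(−)T(−), with neither exercise (E) nor tumor (T), the normal exercise group, E(+)T(−), the cancer control, E(−)T(+), and the cancer exercise group, E(+)T(+). Tumor-bearing mice had received CT26 cells, a mouse colorectal carcinoma line, through the tail vein. Mice without exercise are called sedentary, and exercised mice ran on a treadmill at high intensity in the morning hours of every other day. Each group had 1 heart library. The paper describes a representative mouse of each group for the gastrocnemius muscle and a similar analysis of the heart, without stating how many mice each heart library held. There was therefore no replicate within a group, and every difference below is between 2 libraries. The hour at which the tissue was taken and the time since the last run are not given either, so that group, hour of collection and time since exercise cannot be told apart.

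The circadian clock is a feedback loop of transcription that runs in nearly every cell, including the cardiomyocyte. CLOCK and BMAL1, the product of Arntl, pair up and bind E-box elements in the Per, Cry, Nr1d1, Nr1d2 and Dbp genes, whose mRNA then accumulates. PER and CRY proteins return to the nucleus and block CLOCK and BMAL1, while the REV-ERB receptors encoded by Nr1d1 and Nr1d2 repress Arntl through ROR elements. DBP, TEF and HLF activate genes with D-box elements, which NFIL3 represses. As a result, mRNA of Arntl and mRNA of Dbp, Nr1d1 and the Per genes peak at opposite times of day in rodent heart. Per1 and, in part, Per2 also respond to glucocorticoids and to cAMP signaling outside this loop.

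The promoters were searched for these elements in the 250 bases before each annotated start site in the RefSeq table for GRCm38.p6, the patch release of mm10. Of the 10 genes, 9 had an entry, with 13 windows in all, some of which overlap where a gene has several start sites. An entry for Per2 was not found. On either strand, the E-box CACGTG was present in 2 of the 9 genes, Per1 and Cry1, in 1 window of each. Of all 32851 windows, 6.02% held it, and this share and those below are per window, not per gene. A D-box, searched as TTATGTAA, TTACATAA, TTATATAA or TTACGTAA, was present only in Per3 among the 9 genes, at 2 places in 1 window, against 1.43% of all windows. ROR elements, searched as TAGGTCA or TGGGTCA, were in no window of the 9 genes and in 5.38% of all windows. The cAMP response element TGACGTCA and the heat shock element TTCNNGAA were also in no window of the 9 genes, against 1.55% and 7.17% of all windows. Elements outside these 250 bases, or with other letters, were not searched for, so that a gene without a match may still hold them. The 3 promoters with a match are shown because Per1 and Per3 were the Per genes with the largest differences between libraries, and Cry1 shares the E-box with Per1. The Per1 window lies at chr11:69098699-69098948 on the plus strand, inside the annotated gene and before one of its start sites, with the E-box at position −166. The Per3 window lies at chr4:151044666-151044915 on the minus strand, with D-boxes at −205 and −158. The Cry1 window lies at chr10:85185055-85185304 on the minus strand, with the E-box at −60. Positions are counted back from the start site to the first base of the element, and capitals mark the elements.
Per1: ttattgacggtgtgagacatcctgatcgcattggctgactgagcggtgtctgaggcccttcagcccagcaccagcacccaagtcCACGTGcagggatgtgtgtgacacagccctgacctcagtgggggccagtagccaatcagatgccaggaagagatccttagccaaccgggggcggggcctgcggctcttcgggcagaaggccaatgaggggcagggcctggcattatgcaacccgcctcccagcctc
Per3: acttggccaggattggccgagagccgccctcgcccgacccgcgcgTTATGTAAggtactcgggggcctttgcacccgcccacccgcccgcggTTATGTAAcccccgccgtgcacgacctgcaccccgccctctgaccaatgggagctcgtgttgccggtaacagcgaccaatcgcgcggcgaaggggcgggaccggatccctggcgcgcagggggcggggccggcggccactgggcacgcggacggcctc
Cry1: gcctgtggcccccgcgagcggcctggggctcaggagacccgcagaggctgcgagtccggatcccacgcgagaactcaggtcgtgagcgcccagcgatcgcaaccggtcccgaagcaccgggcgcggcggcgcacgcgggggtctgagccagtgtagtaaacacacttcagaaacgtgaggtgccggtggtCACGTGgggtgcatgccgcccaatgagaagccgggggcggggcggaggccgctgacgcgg

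The values are log2 values of normalized read counts with 1 added, from libraries that read the 3′ ends of mRNA, and the number of reads behind each value was recovered. The recovered totals ran from 6595420 to 11545911 reads, and the clock genes themselves had 7 to 803 reads in a library. All 7 cardiomyocyte markers, among them Myh6 and Tnnt2, had reads in all 4 libraries, with a summed level of 287381 to 342684 normalized reads. The cancer exercise heart stood apart in its red cell transcripts. All 6 erythroid markers were present in every library, with a summed share of 28.5% of its reads, against 6.22% to 6.97% in the others. All globin genes together made up 37.3% of its reads, against 7.86% to 8.76% in the others. When every library was instead scaled to the same total of reads, as RPM, which does not correct for this, the median log2 difference of the 11638 genes averaging 16 or more normalized reads was −0.59 for exercise in tumor-bearing mice and −0.74 for tumor in exercised mice. Other cell types also differed between libraries. The 4 neutrophil markers that were found summed to 75.3 to 110 normalized reads in the libraries without tumor and to 2903 to 5511 with tumor, Camp being at 0 in the normal control. The 5 macrophage markers had reads in every library and summed to 2272 to 4375. The 5 fibroblast markers summed to 24137 to 50673, highest in the cancer control, and the 5 endothelial markers to 5386 to 7438. White adipocyte markers summed to 798 in the normal control, 188 in the normal exercise heart, 85.7 in the cancer control and 697 in the cancer exercise heart, with Lep at 0 in 3 libraries and Plin1 at 0 in the cancer control. The 4 lung epithelial markers were present in all libraries and summed to 148 in the normal exercise heart, 503 in the cancer control, 582 in the normal control and 1721 in the cancer exercise heart, and the 5 skeletal muscle markers summed to at most 34.1. The part of these shifts in the clock gene values was not tested, and in whole tissue fewer cells of a type and less RNA per cell cannot be told apart.

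A gene was called higher or lower when it differed by at least 2-fold and had at least 4 normalized reads in at least 1 of the 2 libraries. The fold and the minimum are those the study names, and applying the minimum to either library is the reading used here. A minimum of 16 normalized reads, or none, called as many clock genes in each comparison. With exercise in mice without tumor, 3 of the 10 clock genes were called, against 12.3% of the 13937 genes over the minimum, with 1 higher and 2 lower against 5.88% and 6.4%. With tumor in sedentary mice, 3 were called, against a background of 27.6%, so that the share of clock genes was near that of all genes, with 3 higher and 0 lower against 14.6% and 13.1%. With exercise in tumor-bearing mice, 1 was called, against 19.4%, with 0 higher and 1 lower against 9.39% and 10%. With tumor in exercised mice, 5 were called, against 23%, with 4 higher and 1 lower against 12% and 11.1%. With exercise and tumor together, 3 were called, against 24.6%, with 2 higher and 1 lower against 12.4% and 12.2%. The median log2 difference of the 10 genes was −0.17, 0.28, −0.13, 0.35 and 0.19 in these 5 comparisons, with medians over all genes between −0.02 and 0.00. The 5 comparisons share libraries and are not independent. Each difference is given with the exact 95% binomial (Clopper-Pearson) interval of the reads' ratio, which covers counting error only. This interval left out 0 for 7, 6, 5, 7 and 8 of the clock genes in the same order, against 31.9%, 56%, 46.8%, 52.4% and 51.5% of all genes. As RPM, 0 higher and 4 lower were called with exercise in tumor-bearing mice, against 3.81% and 25.6% of all genes. With tumor in exercised mice the split turned from 4 higher and 1 lower to 2 higher and 3 lower as RPM, against 5.62% and 35.3%, with Per3 at −1.20 among the lower. With exercise and tumor together it was 2 higher and 3 lower as RPM, against 6.03% and 37.1%.

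**Figure D1:**
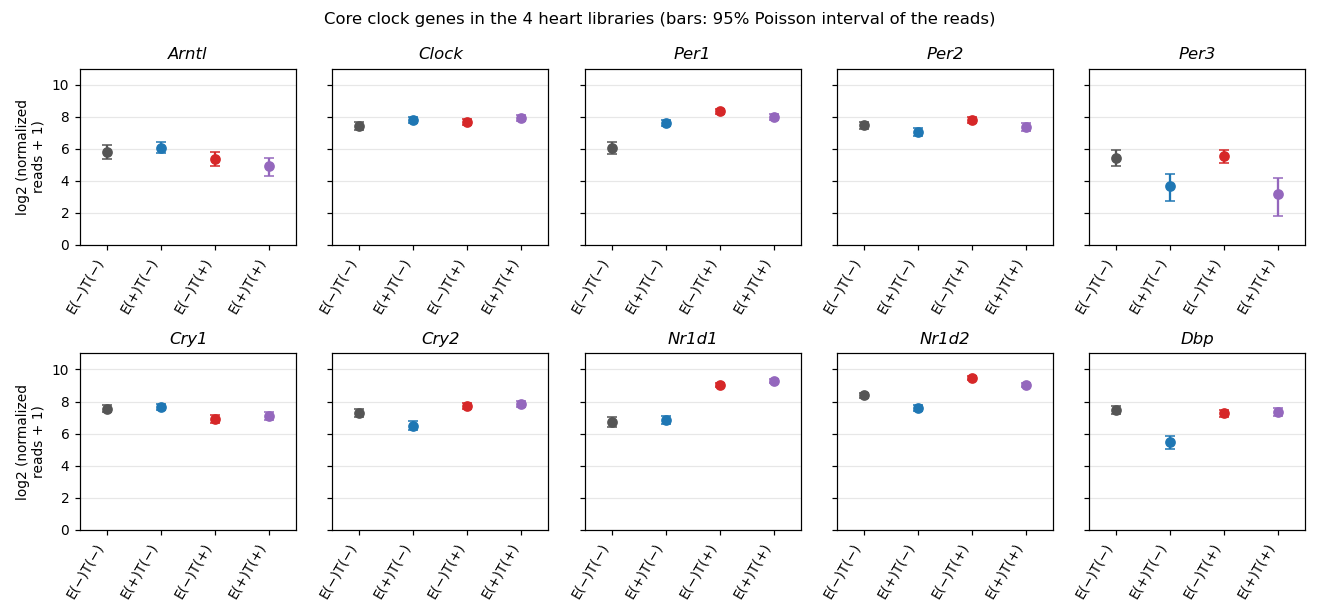
Level of each core clock gene in the 4 heart libraries, as log2 of the normalized read count plus 1, with the exact 95% Poisson interval of the reads as bars and 1 library per group. Nr1d1 stood at 6.71 and 6.83 without tumor and at 9.02 and 9.30 with tumor, Per3 was lowest in both exercised libraries, and Dbp was lowest in the normal exercise heart.

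Clock, the DNA-binding activator that is least rhythmic in most tissues, was called in no comparison. It stood at 7.43 in the normal control, 7.80 in the normal exercise heart, 7.66 in the cancer control and 7.91 in the cancer exercise heart on the log2 scale, on 150 to 245 reads. In order of level, no neighbours were apart by more than counting error. Arntl, which encodes the partner BMAL1, stood at 5.81 in the normal control on 48 reads, 6.07 in the normal exercise heart on 73, 5.38 in the cancer control on 46 and 4.88 in the cancer exercise heart on 26. Its level was thus highest in the exercised heart without tumor and lowest in the exercised heart with tumor, while each step between neighbours in level was within counting error. Between those ends, Arntl fell by 1.18 on the log2 scale (95% interval −1.92 to −0.55) with tumor in exercised mice. When reads were subsampled to the smallest library this difference was −0.95, under 2-fold. Npas2, a paralog of Clock that can take its place as partner of BMAL1, had 5 reads in the normal control, 22 in the normal exercise heart and 3 in each library with tumor. It was called higher with exercise in mice without tumor, at 1.64 (0.36 to 3.55), and lower with tumor in exercised mice, at −2.28 (−4.98 to −0.87), like Arntl on few reads.

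The 3 Per genes, which encode the rhythmic repressors, differed in different directions. Per1, the family member with the fastest response to outside signals, stood at 6.06 in the normal control on 57 reads, 7.60 in the normal exercise heart on 214, 8.34 in the cancer control on 366 and 7.99 in the cancer exercise heart on 231. The normal control was the lowest, and all neighbours in level were apart by more than counting error. Per1 rose by 1.55 (1.14 to 2.01) with exercise in mice without tumor and by 2.28 (1.90 to 2.73) with tumor in sedentary mice. With both exercise and tumor it was higher than in the control by 1.93 (1.53 to 2.40). Against the cancer control, the cancer exercise heart differed by −0.35 (−0.60 to −0.11), under 2-fold. Against the normal exercise heart, it differed by 0.38 (0.11 to 0.66), a value that turned to −0.33 as RPM, beside the median of −0.74 over all genes.

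Per3, a family member whose loss leaves the clock largely running, was lower in both exercised hearts. It stood at 5.43 in the normal control on 37 reads and 5.53 in the cancer control on 51, and at 3.66 in the normal exercise heart on 13 and 3.14 in the cancer exercise heart on 7. The exercised libraries were both below the unexercised ones, and the levels within each of these pairs were within counting error of each other. Per3 fell by 1.77 (−2.89 to −0.91) with exercise in mice without tumor and fell by 2.39 (−3.94 to −1.41) with exercise in tumor-bearing mice. It was the only clock gene of the 10 called with exercise in tumor-bearing mice, where Arntl at −1.06, Per2 at −1.02 and Nr1d2 at −1.03 also passed as RPM, and the low read numbers make its intervals wide. Per2, the repressor whose loss disturbs the rhythm most within the family, lay between 7.04 and 7.81 in the 4 libraries, on 145 to 253 reads, and was called in no comparison apart from that value as RPM. Its log2 difference was −0.42 (−0.76 to −0.08) with exercise in mice without tumor and −0.44 (−0.75 to −0.15) in mice with tumor. Within a library, the log2 level of Per1 minus that of Per3, which does not depend on how libraries are scaled, was 0.63 in the normal control, 2.81 in the cancer control, 3.95 in the normal exercise heart and 4.85 in the cancer exercise heart. The difference between these paralogs was thus smallest in the normal control.

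Cry1 and Cry2 encode the repressors that hold CLOCK and BMAL1 inactive, Cry1 being the later of the pair in its daily peak. Cry1 was under 2-fold in every comparison, apart from −1.25 with tumor in exercised mice and −1.18 with exercise and tumor together as RPM, and stood at 7.55 in the normal control, 7.64 in the normal exercise heart, 6.94 in the cancer control and 7.11 in the cancer exercise heart, on 125 to 219 reads. The libraries with tumor were both below those without, with a log2 difference of −0.61 (−0.96 to −0.28) in sedentary mice and −0.53 (−0.86 to −0.21) in exercised mice. Cry2 stood at 7.28 in the normal control on 135 reads, 6.498 in the normal exercise heart on 99, 7.73 in the cancer control on 240 and 7.86 in the cancer exercise heart on 211. It was lowest in the exercised heart without tumor, where the difference from the control was −0.79 (−1.18 to −0.40). Cry2 rose by 1.36 (1.01 to 1.73) with tumor in exercised mice. As RPM that value was 0.64, under 2-fold, beside the median of −0.74 over all genes. The log2 level of Cry2 minus that of Cry1 in the same library was −0.27 in the normal control and −1.14 in the normal exercise heart, and 0.80 in the cancer control and 0.75 in the cancer exercise heart. This value was below 0 in both libraries without tumor and above 0 in both with tumor. Its counting interval was not computed, and in the normal control it rested on 135 reads of Cry2 against 163 of Cry1.

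Nr1d1 and Nr1d2 encode REV-ERBα and REV-ERBβ, the receptors that repress Arntl. Nr1d1 was higher in both hearts with tumor than in both without. It stood at 6.71 in the normal control on 90 reads and 6.83 in the normal exercise heart on 125, against 9.02 in the cancer control on 589 and 9.30 in the cancer exercise heart on 576. Nr1d1 rose by 2.32 (2.01 to 2.67) with tumor in sedentary mice, a 4.98-fold difference, and by 2.47 (2.20 to 2.77) with tumor in exercised mice, or 5.54-fold. With exercise its difference was 0.12 (−0.27 to 0.54) in mice without tumor. In mice with tumor it was 0.28 (0.11 to 0.45), which turned to −0.31 as RPM, beside the median of −0.59 over all genes. Nr1d2 stood at 8.39 in the normal control on 292 reads, 7.62 in the normal exercise heart on 216, 9.47 in the cancer control on 803 and 9.03 in the cancer exercise heart on 477, and all neighbours in level were apart by more than counting error. It rose by 1.08 (0.89 to 1.28) with tumor in sedentary mice and by 1.41 (1.18 to 1.66) with tumor in exercised mice. The first of these was 0.93 as RPM and also 0.93 when genes over 1% of a library were left out of the scaling, and the second was 0.70 as RPM, all under 2-fold. With exercise Nr1d2 differed by −0.78 (−1.04 to −0.52) in mice without tumor and by −0.44 (−0.61 to −0.28) in mice with tumor. The level of Nr1d1 minus that of Nr1d2 was −1.69, −0.79, −0.45 and 0.27 in the normal control, the normal exercise heart, the cancer control and the cancer exercise heart.

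The 3′ end of Nr1d1 on the minus strand of chromosome 11 overlaps that of Thra, which encodes the thyroid hormone receptor alpha and lies on the plus strand. In the GENCODE annotation of mm10, the pair shares 263 bases of exon, and whether reads were counted by strand is not stated. Thra had 263, 287, 165 and 192 reads in the normal control, the normal exercise heart, the cancer control and the cancer exercise heart. Its log2 difference was −1.05 (−1.34 to −0.76) with tumor in sedentary mice and −0.31 (−0.58 to −0.04) with tumor in exercised mice, opposite in sign to that of Nr1d1 in both. Dbp shares 539 bases of exon with Sphk2, a sphingosine kinase gene whose 3′ end meets that of Dbp from the other strand on chromosome 7. Sphk2 had 316, 266, 301 and 316 reads in the same order of libraries. Its level was lowest, like that of Dbp, in the normal exercise heart, at 7.92, but close to the 8.06 of the cancer control. The difference of Sphk2 between the normal exercise heart and the normal control was −0.59 (−0.83 to −0.35). The exchange of reads within either pair was not tested. Cry2 overlaps the transcript D930015M05Rik by 295 bases of exon, and this transcript had 0 to 5 reads.

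**Figure D2:**
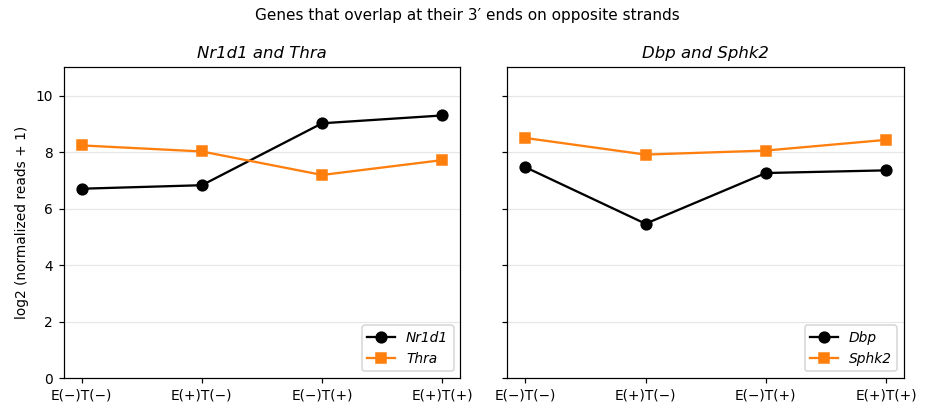
Levels of Nr1d1 with Thra and of Dbp with Sphk2 in the 4 heart libraries, as log2 of the normalized read count plus 1, with lines that join the values of a gene and 1 library per group. Nr1d1 was higher and Thra lower in the libraries with tumor. Dbp and Sphk2 both had their lowest level in the normal exercise heart, Sphk2 at 7.92 there and close to it, at 8.06, in the cancer control.

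Dbp, a D-box activator and one of the most rhythmic transcripts of peripheral tissues, stood apart in a single library. It stood at 7.47 in the normal control on 154 reads, 7.26 in the cancer control on 173 and 7.36 in the cancer exercise heart on 149, each within counting error of the next in level. In the normal exercise heart it stood at 5.47 on 48 reads. Dbp fell by 2.004 (−2.52 to −1.55) with exercise in mice without tumor and was higher by 1.89 (1.43 to 2.41) with tumor in exercised mice, the first a 4.01-fold and the second a 3.71-fold difference. Its differences were −0.21 (−0.53 to 0.11) with tumor in sedentary mice and 0.09 (−0.23 to 0.42) with exercise in tumor-bearing mice. Tef, a relative of Dbp, had 948 reads in the normal control, 607 in the normal exercise heart, 1242 in the cancer control and 606 in the cancer exercise heart, and its exercise difference was −0.98 (−1.13 to −0.84) without tumor and −0.72 (−0.87 to −0.58) with tumor. Hlf, the third of these activators, differed by −0.70 (−1.01 to −0.41) and −0.27 (−0.62 to 0.08). Nfil3, the D-box repressor, rose with exercise by 1.34 (1.05 to 1.64) without tumor, on 409 reads against 127, and by 1.10 (0.85 to 1.37) with tumor, on 337 against 194. As RPM the second of these was 0.52, under 2-fold, and Tef passed 2-fold in both, at −1.004 and −1.31.

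**Figure D3:**
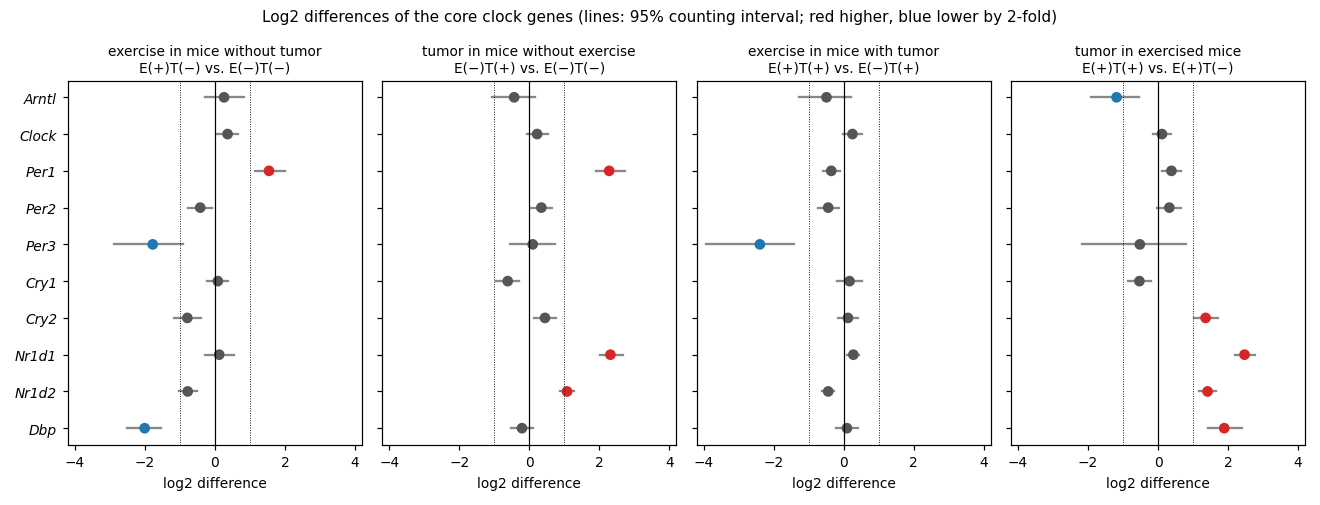
Log2 difference of each core clock gene in 4 comparisons, with the 95% binomial interval of the reads' ratio as lines and dotted marks at a 2-fold difference. Per1 was higher and Per3 and Dbp lower with exercise in mice without tumor, Per1, Nr1d1 and Nr1d2 were higher with tumor in sedentary mice, and only Per3 passed 2-fold with exercise in mice with tumor on this deposited scale.

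The difference that went with exercise was set against itself in mice with and without tumor, as the value in tumor-bearing minus that in tumor-free mice, with an approximate 95% interval from the reads of the 4 libraries. For Dbp it was 2.10 (1.53 to 2.66), and for Per1 it was −1.90 (−2.38 to −1.42). Cry2 had a value of 0.91 (0.45 to 1.37) and Nr1d2 one of 0.34 (0.03 to 0.64). As RPM the value for Nr1d2 turned to −0.23 and that for Cry2 was 0.34, while Dbp stood at 1.53 and Per1 at −2.47. For the other 6 genes the interval on the deposited scale held 0, from −0.75 (−1.62 to 0.12) for Arntl to 0.15 (−0.27 to 0.58) for Nr1d1. With 1 library per group, these differences are between libraries and were not tested against the spread between mice.

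A contrast within each library does not depend on how libraries are scaled to each other. The mean log2 level of Per1, Per2, Per3, Nr1d1, Nr1d2 and Dbp was therefore set against the mean of Arntl, Clock and Npas2, genes that peak at the opposite time of day or pair with those that do. This contrast was 1.58 in the normal control, 0.28 in the normal exercise heart, 2.96 in the cancer control and 2.39 in the cancer exercise heart. It was lowest in the exercised heart without tumor and higher in both hearts with tumor than in both without. The difference from the normal control was −1.31 for the normal exercise heart (approximate 95% counting interval −1.85 to −0.76), 1.37 for the cancer control (0.63 to 2.11) and 0.80 for the cancer exercise heart (0.04 to 1.57). The cancer exercise heart and the cancer control differed by −0.57 (−1.40 to 0.27), and the cancer exercise heart and the normal exercise heart by 2.11 (1.44 to 2.78). Without Nr1d1 the contrast was 1.63, 0.19, 2.73 and 2.001 in the order of the groups above. Without Npas2, which had few reads, it was 0.30, −0.56, 1.39 and 0.97, so that the order of the libraries stayed.

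**Figure D4:**
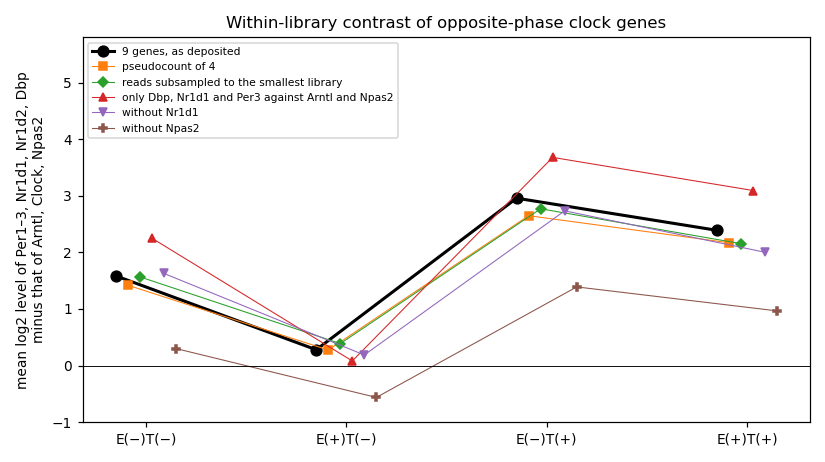
Mean log2 level of Per1 to Per3, Nr1d1, Nr1d2 and Dbp minus that of Arntl, Clock and Npas2 in each heart library, with 1 line for the 9 genes and 1 for each alternative, 1 library per group. All 6 lines were lowest in the normal exercise heart and highest in the cancer control, at 0.28 and 2.96 for the 9 genes.

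Further clock genes came from a list of 26 partners and regulators. Of these, 24 to 25 were over the minimum in a comparison. With exercise in mice without tumor, 2 were higher, Nfil3 and Npas2, and none was lower by 2-fold, against 5.88% higher and 6.4% lower among all genes, with a median of −0.03 against 0.00. As RPM 2 were higher and 2 lower, Tef passing the 2-fold mark, against 6.54% and 7.5% of all genes. With genes over 1% of a library left out of the scaling, 2 were higher and 1 lower, against 5.7% and 6.91%. With tumor in sedentary mice, 2 were higher and 2 lower of 24, a smaller share than the 27.6% of all genes called. Ciart, a repressor of CLOCK and BMAL1 and itself a strongly rhythmic gene, had 3 reads in the normal control, 7 in the normal exercise heart, 90 in the cancer control and 48 in the cancer exercise heart. It was higher by 4.11 (2.94 to 6.83) with tumor in sedentary mice and by 2.90 (1.90 to 4.44) with tumor in exercised mice, the direction in which Nr1d1 was also called. Bhlhe40, which encodes the E-box repressor DEC1, rose by 1.74 (1.38 to 2.15) on 316 reads against 72 with tumor in sedentary mice. Timeless, named for the fly clock gene but known in mammals for its part in DNA replication, fell by 1.84 (−2.33 to −1.40), and Rorb fell by 1.90 (−3.50 to −0.75) on 7 reads against 22. With exercise in mice with tumor, 4 were higher, among them Nfil3, Timeless and Rorb, and none was lower on the deposited scale, against 9.39% and 10% of all genes. As RPM the direction of these calls turned, with 0 higher and 6 lower, against 3.81% and 25.6% of all genes. Nfil3, Timeless and Rorb stood at 0.52, 0.63 and 0.82 as RPM, still above 0 but under 2-fold. The kinases and ligase subunits that set PER stability, Csnk1d, Csnk1e, Btrc and Fbxw11, ranged by at most 0.48 over the 4 libraries on the deposited scale. The widest range was that of Csnk1e, which differed by −0.48 (−0.70 to −0.27) with exercise in mice with tumor.

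Among 16 genes known as outputs of the heart clock, 1 was higher and 1 lower with exercise in mice without tumor, against 5.88% and 6.4% of all genes, with a median of −0.17. Noct, a rhythmic phosphatase gene, rose by 1.14 (0.56 to 1.80), and Pdk4, which restrains glucose oxidation, fell by 1.04 (−1.46 to −0.66). With tumor in sedentary mice, 2 were higher and 4 lower, against 14.6% and 13.1% of all genes, with a median of −0.47. Tcap, a sarcomere gene, rose by 1.57 (1.52 to 1.62) and Klf15, a rhythmic regulator of metabolism, by 1.17 (0.85 to 1.52). Pdk4 fell by 3.21 (−4.04 to −2.57), Tfrc, the transferrin receptor gene, fell by 2.41 (−2.76 to −2.09) and Kcnip2, a potassium channel subunit gene, fell by 1.55 (−1.64 to −1.47). With exercise in mice with tumor, 3 were higher, Pdk4, Tfrc and Kcnip2, and Klf15 was lower by a difference of −1.45 (−1.82 to −1.11), against 9.39% and 10% of all genes. As RPM Kcnip2 was at 0.46, under 2-fold, and 2 were higher and 3 lower, against 3.81% and 25.6% of all genes. With tumor in exercised mice, 1 of the 16 was called on the deposited scale, Tcap, higher by 2.07 (2.01 to 2.13), against 23% of all genes. As RPM 1 was higher and 4 lower, against 5.62% and 35.3% of all genes. When genes over 1% of a library were left out of the scaling, 1 was higher and 1 lower, against 10.2% and 14.5%.

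Signals that reach the Per genes from outside the loop were described by 3 lists. Of 10 glucocorticoid-responsive genes, 6 were higher and none lower with tumor in sedentary mice, against 14.6% and 13.1% of all genes, with a median of 1.26 against −0.01 for all genes. Fkbp5, a chaperone of the glucocorticoid receptor, rose by 2.22 (1.99 to 2.47) and the kinase gene Sgk1 by 2.22 (2.01 to 2.45). In exercised mice, 5 of the 10 were higher with tumor and none lower by 2-fold, against 12% and 11.1% of all genes. Tsc22d3 and Dusp1 went the other way there, under 2-fold, at −0.68 (−0.79 to −0.57) and −0.255 (−0.40 to −0.12). As RPM 3 were higher and 1 lower, against 5.62% and 35.3% of all genes. With exercise in mice without tumor 2 were higher and 2 lower, against 5.88% and 6.4%. Of 13 immediate early and CREB target genes, 8 were higher with exercise in mice without tumor, 9 with tumor in sedentary mice, 3 with exercise in mice with tumor and 11 with exercise and tumor together, against 5.88%, 14.6%, 9.39% and 12.4% of all genes. With tumor in exercised mice, where Per1 was not called, 5 were higher against 12%, and as RPM 3 were higher and 3 lower against 5.62% and 35.3%. Arc, with 10 reads or fewer in a library, was called lower in that comparison and with exercise and tumor together. The orphan receptor gene Nr4a1 rose by 2.52 (2.17 to 2.94) with exercise in mice without tumor and by 2.42 (2.06 to 2.83) with tumor in sedentary mice. With both exercise and tumor it rose by 2.87 (2.52 to 3.29). Per1 was also called higher in these 3 comparisons, which share the normal control. Other members went the opposite way with tumor in sedentary mice, each under 2-fold. These were Crem at −0.82 (−1.22 to −0.43), Nr4a2 at −0.74 (−1.44 to −0.07), Fosb at −0.51 and Arc at −0.98. Of 10 HSF1 target chaperones, 7 were higher with exercise in mice without tumor, against 5.88% of all genes and with a median of 1.69. With tumor, 5 were lower in sedentary mice against 13.1%, and 6 in exercised mice against 11.1%. As RPM, 10 were lower with tumor in exercised mice, against 35.3% of all genes. The largest differences were those of Hspa1a and Hspa1b. They rose by 5.40 (5.08 to 5.78) and 4.96 (4.64 to 5.34) with exercise in mice without tumor. With tumor in exercised mice they differed by −5.88 (−6.33 to −5.52) and −5.675 (−6.17 to −5.28). Hsph1, a large heat shock protein gene, rose by 2.17 (1.99 to 2.35) with exercise in mice without tumor. It fell by 3.36 (−3.63 to −3.11) with tumor in exercised mice. The part of these signals in the clock gene values was not tested.

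**Figure D5:**
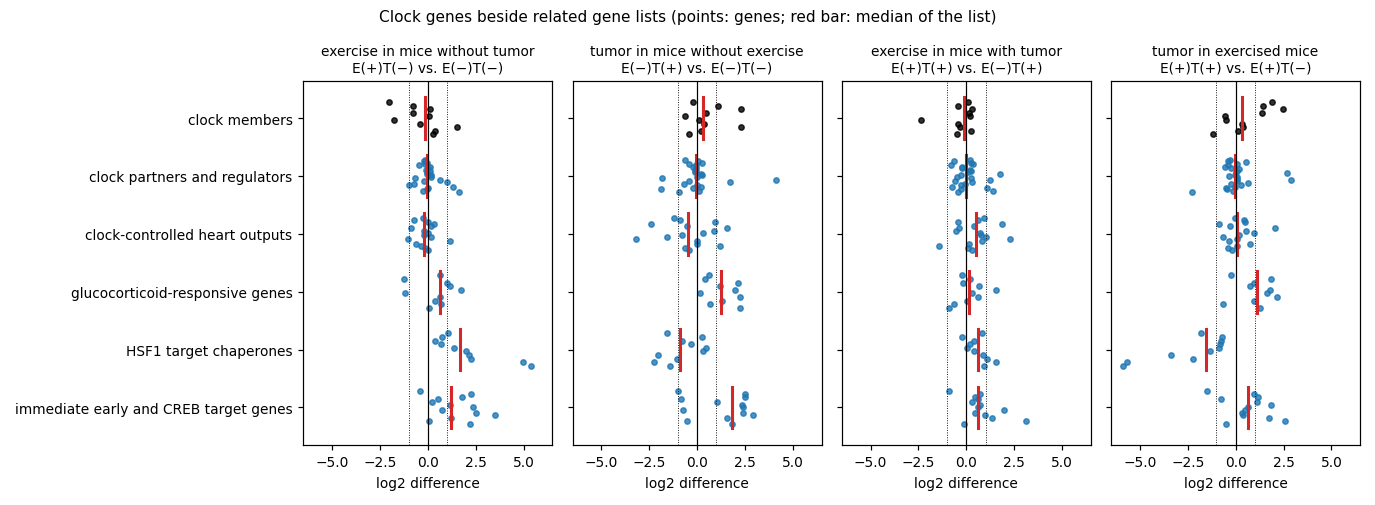
Log2 differences of the core clock genes and of 5 related gene lists in 4 comparisons of the heart libraries, with a point for each gene over the minimum of 4 normalized reads, red bars at the median of a list and dotted marks at a 2-fold difference. The medians of the clock genes lay between −0.17 and 0.35, and those of the glucocorticoid-responsive genes and of the immediate early genes were 1.26 and 1.81 with tumor in sedentary mice.

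The patterns of Arntl and Dbp over the 4 libraries were compared with those of 4204 other genes averaging 16 or more normalized reads with a range of at least 1 on the log2 scale. Likeness was the Euclidean distance between log2 values centred on the mean of each gene. Nearest to Arntl were Plekhg1, Myadm, Zdhhc18, Pdia5 and Hexdc, at distances of 0.01 to 0.07. Nearest to Dbp were Fam184a at 0.16, Snord49b at 0.29, Gadd45a at 0.31, Mnd1 at 0.32 and Pcgf2 at 0.36. With 4 libraries, a small distance describes only 3 free values.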

How the data were processed

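Heart mRNA-seq data of 4 libraries, 1 per group, were analysed. Per the labels and the paper, the authors made QuantSeq 3′ libraries, aligned reads with Bowtie2 to mm10, took coverage per gene from Bedtools, and applied a quantile normalization in edgeR to the read counts. Tool versions are not given in the sources used here. The deposited values are log2 values of normalized read counts with a pseudocount of 1. Read numbers were recovered by inverting a negative binomial quantile adjustment, with the library sizes and 1 dispersion (0.149) estimated from the values. The largest misfit to a deposited value was 0.000616 on the log2 scale, and of 25533 recovered numbers from 5 to 99, 100% were whole to within 0.1. In simulated reads for 17174 genes with changes between the cancer control and the normal control, 100% of read numbers under 300 were recovered exactly.

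Differences are of deposited log2 values, which understate the change of genes with few reads. With 1 library per group, no test between groups is possible, and no p-value is given. Intervals describe counting error alone and leave out the spread between mice. They take each read as a separate molecule. PCR duplicates were not separated from molecules, so that the intervals may be too narrow even for counting error. The clock genes and all gene lists were chosen with earlier results of these data known. Named beside the 10 clock genes were called list members averaging 16 or more normalized reads, at most 4 per list and comparison, genes that overlap a clock gene, and the 5 genes nearest to Arntl and to Dbp. Npas2, Tef, Hlf, Arc, and the PER kinases and ligase subunits fall outside this rule. So do Klf15 with tumor in sedentary mice and Nr4a1 with exercise and tumor together. Tsc22d3, Dusp1, Crem, Nr4a2 and Fosb, given where they were under 2-fold, also fall outside it. All of these were named after their values were seen. Alternatives were a pseudocount of 4, other scalings, summing rows that share a symbol, read subsampling, minimums of 16 or 0 normalized reads, a fold of 1.5, and calls by the counting interval. Figures were drawn with matplotlib 3.10.9, and the rest was computed in Python 3.11.15 with pandas 2.3.3, scipy 1.17.1 and numpy 2.4.6.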

Additional observations from a re-analysis of the deposited data

Results flagged for a closer look

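Per1 was called higher with exercise in mice without tumor and was not called in mice with tumor, where its sign was the opposite. Its log2 difference was 1.55 in mice without tumor and −0.35 in mice with tumor, each with a counting interval that left out 0. The second was under 2-fold and smaller in size than the median absolute difference of 0.41 over all genes. In mice with tumor, the interval left out 0 for 46.8% of all genes. The difference between the values of Per1, −1.90 (approximate 95% counting interval −2.38 to −1.42), was not tested against the spread between mice, since each group had 1 library.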

How the results depend on the processing

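No paired analysis was possible because each group had 1 library, and for the same reason no replicate could be left out. The number of clock genes called kept within 1.5 times under the pseudocount of 4, both other minimums, subsampling and the scaling without genes over 1% of a library. As RPM, 4 in place of 1 were called with exercise in tumor-bearing mice and 5 in place of 3 with exercise and tumor together. A fold of 1.5 gave 5 in place of 3 with exercise in mice without tumor and also with exercise and tumor together. Calls by the counting interval gave 7 with exercise in mice without tumor, 6 with tumor in sedentary mice, 5 with exercise in tumor-bearing mice and 8 with exercise and tumor together. These alternatives accept smaller differences by construction, apart from the scaling, which shifts all genes of the cancer exercise heart down. The contrast of opposite-phase genes moved beyond its counting interval once, from −1.31 to −2.17 for the normal exercise heart against the normal control with only Dbp, Nr1d1 and Per3 against Arntl and Npas2. The exercise difference of Nr1d2 with minus without tumor reversed from 0.34 to −0.23 as RPM. Leaving out Npas2, and the scalings of this difference and of the split of calls, were chosen after seeing the data. No called 2-fold difference of a clock gene changed sign under any scaling, pseudocount or subsampling. Of 250 values of single clock genes under alternatives, 225 lay within the counting interval, and 24 of the other 25 came from RPM. The 250 include the summing of rows that share a symbol. That could not change a value, since each clock gene is on a single row. Of 100 counts of other list genes, 86 kept within 1.5 times. Per3, Arntl and Npas2 are limited by depth, with as few as 7, 26 and 3 reads.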
